A study of Mus musculus with 3 samples.

Results

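Genes that clear glutamate, GABA and glycine from the space around cells, or move and make the glutamine that is formed from glutamate, were followed across 3 single-nucleus libraries of differentiated neurospheres. The 9 genes, Slc1a2, Slc1a3, Slc1a4, Slc6a9, Slc6a11, Slc7a10, Slc38a1, Slc38a3 and Glul, were chosen by symbol from the 30559 genes of the count tables, and all 9 were found. Neurospheres are floating clusters of neural stem cells, here from the subventricular zone of newborn C57BL/6 mice, which form neurons, astrocytes and oligodendrocytes when mitogens are withdrawn. The CBP-ablated library came from CBPf/f cells and the p300-ablated library from p300f/f cells, both infected with a lentivirus carrying Cre fused to mCherry, while control cells received a lentivirus carrying a red fluorescent protein. The labels give tamoxifen as the treatment of all 3 libraries, whereas the methods describe lentiviral Cre, and neither states which floxed line the control came from. Each library pooled about 15 cultures on day 15 in vitro, and 16000 sorted nuclei were loaded for each. CBP and p300 are histone acetyltransferases that act as coactivators of many transcription factors, and the comparison asks what the loss of each does to the cells that form.

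In the brain, astrocytes take up most released glutamate through Slc1a2 (GLT-1) and Slc1a3 (GLAST), convert it to glutamine with glutamine synthetase (Glul), and pass the glutamine out through the transporter Slc38a3. Neurons take glutamine in through Slc38a1. Slc6a11 (GAT-3) takes up GABA and Slc6a9 (GlyT1) takes up glycine, while Slc1a4 and Slc7a10 exchange small neutral amino acids such as serine, alanine and glycine.

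The control library held 4884 nuclei, the CBP-ablated one 3017 and the p300-ablated one 4648, with 16312170, 12748336 and 18876682 unique molecular identifiers (UMIs, counted RNA molecules) and medians of 3219, 4016 and 3902.5 UMIs per nucleus. Between 1 and 7 barcodes were shared by any pair of libraries. Crebbp, which encodes CBP, had 335 CPM (the usual counts-per-million scale, UMIs of the gene over all UMIs of the same nuclei) in control and 369.5 CPM in CBP-ablated nuclei, and Ep300, which encodes p300, had 114 CPM in control and 115 CPM in p300-ablated nuclei. These counts run over the whole gene, introns included, and not over the deleted exon, so they did not check the ablation. The authors describe the recombined Ep300 allele as leaving no mature mRNA, and no lower Ep300 level was seen in these counts. With 1 library per group no difference had a replicate check and no test was run. All intervals are 95% intervals that cover counting error only, and both ablated libraries were compared with the same control library.

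Subsets of nuclei were set aside in turn. The first was a gate on raw UMIs, at least 3 of Slc7a11, Slc6a11 and Atp13a4 together and at least 5 of Gpc5, genes whose levels were highest in the astrocyte-like cluster of the control. It took in 899 control nuclei (18.4%, 17.3 to 19.5%), 4 CBP-ablated nuclei (0.133%, 0.0361 to 0.339%) and 10 p300-ablated nuclei (0.215%, 0.103 to 0.395%). The second was the astrocyte-like cluster itself, which showed 9 of its 10 markers and held 1281 nuclei, all of the control library, so that a cell type and a property of that library cannot be told apart. Of the gated control nuclei, 835 lay in that cluster and 446 nuclei of the cluster were not gated. Slc6a11 is both a member and a gate gene, so its level outside the gate follows in part from the gate.

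The starts of the genes were read because CBP takes its name from the factor CREB. RefSeq promoter windows (GRCm38.p6) were present for 7 of the 9 genes, without Slc38a1 and Slc38a3, and the 250 bases before the start were searched on both strands. The stretches below are for Slc1a3, Slc1a2 and Slc6a11, the 2 glutamate transporters and the member with the largest difference between libraries. Capitals mark the core TGACG of the cAMP response element, the core TTGGC of NFI factor sites, or a STAT palindrome TTCNNNGAA, in either direction. The Slc1a3 window is chr15:8710808-8711057 on the minus strand, the Slc6a11 window is chr6:114130991-114131240 on the plus strand, and the Slc1a2 stretch is chr2:102706188-102706355 on the plus strand, which lies inside the gene, before a RefSeq start downstream of the first start of the GENCODE gene, and ends where an annotated exon begins. Distances are counted from the RefSeq start of each window, which can differ from the outer end of the gene given with its values.
Slc1a3: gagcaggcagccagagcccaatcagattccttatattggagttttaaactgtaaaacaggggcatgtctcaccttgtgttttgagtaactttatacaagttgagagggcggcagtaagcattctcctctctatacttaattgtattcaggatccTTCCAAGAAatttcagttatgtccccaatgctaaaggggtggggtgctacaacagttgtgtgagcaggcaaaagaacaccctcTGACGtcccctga
Slc1a2: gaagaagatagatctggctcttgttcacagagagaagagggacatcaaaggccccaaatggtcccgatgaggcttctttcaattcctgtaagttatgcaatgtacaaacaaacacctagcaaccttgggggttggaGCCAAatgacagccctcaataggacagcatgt
Slc6a11: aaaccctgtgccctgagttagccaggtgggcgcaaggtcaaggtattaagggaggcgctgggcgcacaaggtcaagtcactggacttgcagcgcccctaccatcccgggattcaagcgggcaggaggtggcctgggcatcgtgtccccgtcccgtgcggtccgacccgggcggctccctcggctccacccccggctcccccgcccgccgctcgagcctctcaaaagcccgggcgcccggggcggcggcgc
Slc1a3 held a cAMP response element core, which starts 13 bases before the RefSeq start, and a STAT palindrome, which starts 96 bases before it. Across all 32851 windows, 17.8% held the TGACG core, 7.02% the STAT palindrome and 41.5% the NFI core, so each match in a single window is common. The Slc6a11 window held none of the 3 motifs. None of the 9 windows of the 7 genes held the full palindrome TGACGTCA, which was found in 1.55% of all windows. Glul had 2 NFI cores, Slc1a4 had 1 NFI and 1 TGACG core, and Slc7a10 had no match. The 3 Slc6a9 windows together held 2 NFI and 1 TGACG core.

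The glutamate transporters Slc1a2 and Slc1a3 were lower in both ablated libraries, and more so without CBP. Slc1a2 (ENSMUSG00000005089, chr2:102658659-102790784) had 298 CPM (290 to 306) in control, 67.7 CPM (63.3 to 72.4) in CBP-ablated and 153 CPM (147 to 158) in p300-ablated nuclei. The 3 intervals did not overlap, and the log2 ratio to control was −2.14 (−2.24 to −2.03) for CBP and −0.97 (−1.03 to −0.90) for p300. Slc1a3 (ENSMUSG00000005360, chr15:8634124-8710764) had 715 CPM (702 to 728), 346 CPM (335 to 356) and 459 CPM (450 to 469) in the same order. Its log2 ratios were −1.05 (−1.10 to −0.999) for CBP and −0.64 (−0.68 to −0.60) for p300. Between the ablated libraries, Slc1a2 was 2.25-fold and Slc1a3 1.33-fold lower in the CBP-ablated one.

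**Figure D1:**
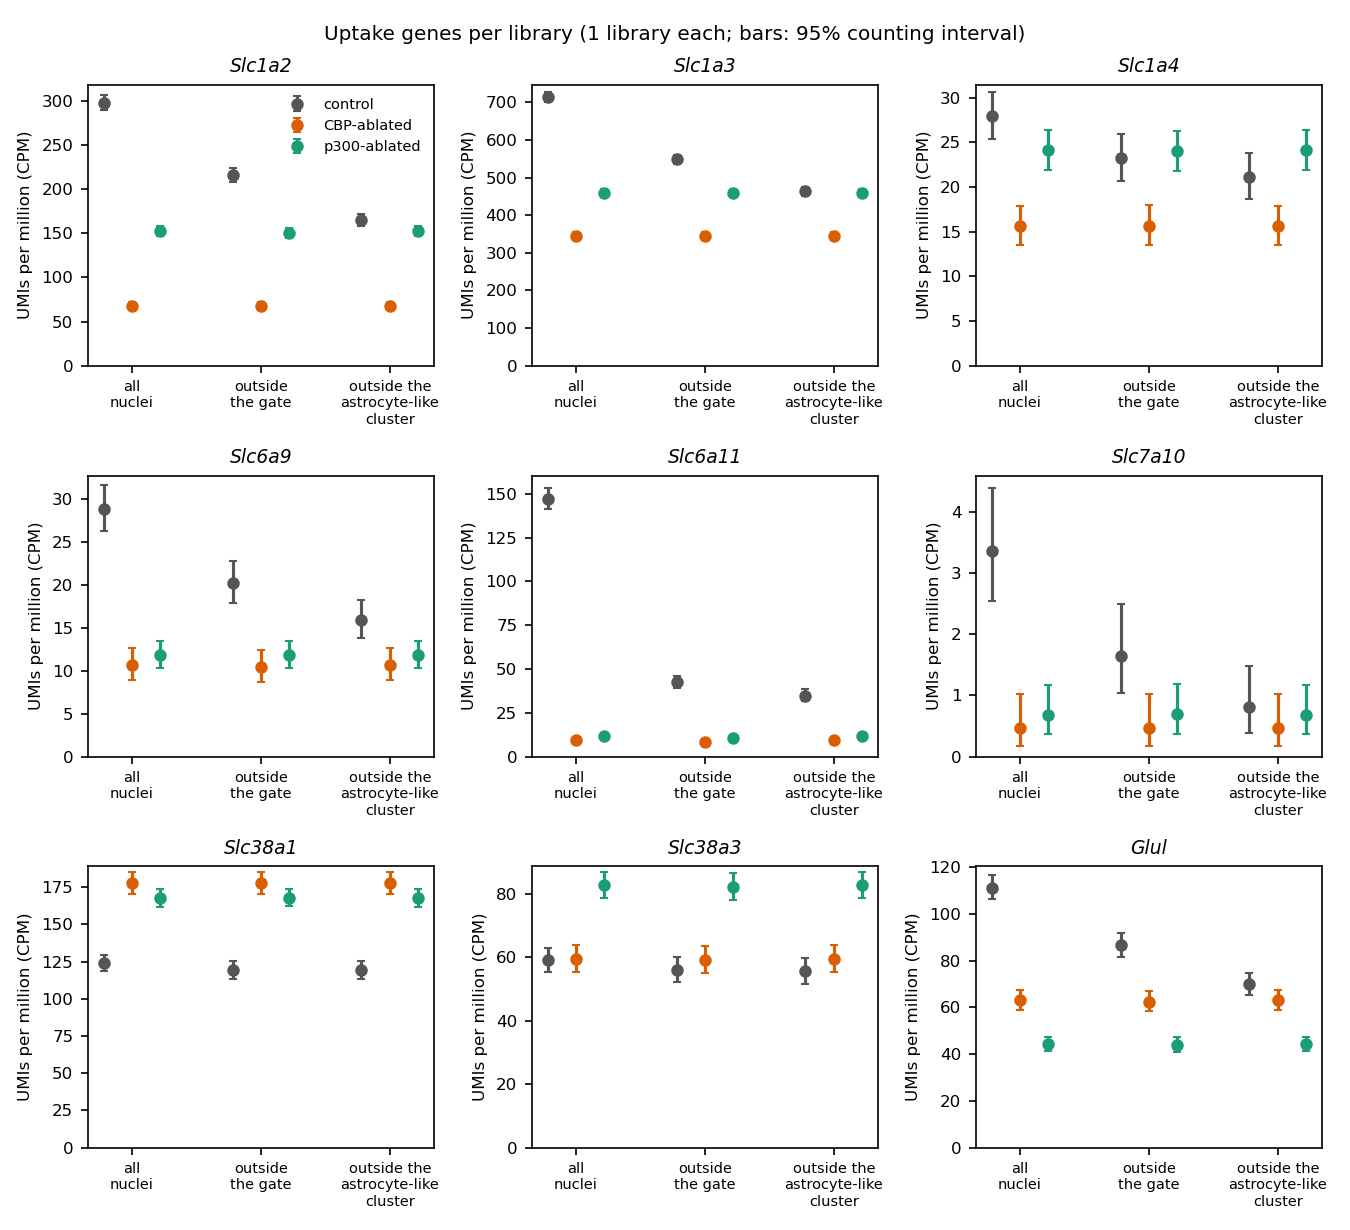
Level of each uptake gene (CPM, linear axes from 0, 1 panel per gene) in the 3 libraries, over all nuclei, outside the gate and outside the astrocyte-like cluster; points are library sums and bars 95% counting intervals, with 1 library per group. Slc1a3 of the p300-ablated library meets the control level once the astrocyte-like cluster is left out, whereas Slc1a2 of the CBP-ablated library, at 67.7 CPM, stays below the control's 165 CPM.

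Nearly all nuclei left out were of the control, so leaving them out could hardly move the ablated levels, and it lowered those of the control. Outside the gate, Slc1a2 had 216 CPM in control, 67.2 CPM in CBP-ablated and 150 CPM in p300-ablated nuclei, log2 ratios of −1.68 (−1.80 to −1.57) and −0.52 (−0.60 to −0.45). Outside the astrocyte-like cluster the ratio was −1.29 (−1.40 to −1.17) for CBP and −0.11 (−0.20 to −0.03) for p300. Slc1a3 outside that cluster was −0.42 (−0.48 to −0.37) for CBP and, for p300, −0.01 with an interval from −0.06 to 0.03.

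The GABA transporter differed most. Slc6a11 (ENSMUSG00000030307, chr6:114131241-114249952) had 147 CPM (141 to 153) in control, 9.33 CPM (7.73 to 11.2) in CBP-ablated and 11.6 CPM (10.1 to 13.2) in p300-ablated nuclei. It was 15.8-fold lower in the CBP-ablated and 12.7-fold lower in the p300-ablated library, and the intervals of the 2 ablated libraries overlapped. Outside the gate the control still had 42.5 CPM against 8.41 and 10.4 CPM, and outside the astrocyte-like cluster 34.9 CPM against 9.33 and 11.6 CPM. Slc7a11, the cystine-glutamate antiporter of the gate, moved with it, at 71.3 CPM in control and at 8.63 and 10.3 CPM in the CBP- and p300-ablated libraries outside that cluster. With 10% of each library taken as free RNA and subtracted, Slc6a11 outside the gate was −1.90 for CBP and −1.60 for p300, against −2.34 and −2.04 without it. A gate without Slc6a11 gave −3.47 and −3.16.

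The glycine transporter was lower in both ablated libraries. Slc6a9 (ENSMUSG00000028542, chr4:117834506-117875198) had 28.9 CPM (26.3 to 31.6) in control, 10.7 CPM (8.95 to 12.6) in CBP-ablated and 11.8 CPM (10.3 to 13.5) in p300-ablated nuclei, log2 ratios of −1.44 and −1.29. Outside the astrocyte-like cluster its ratios were −0.58 (−0.90 to −0.25) and −0.43 (−0.71 to −0.15). Slc7a10 (ENSMUSG00000030495, chr7:35186385-35201114) had 55 UMIs in control, 6 in CBP-ablated and 13 in p300-ablated nuclei. Its control level was 3.37 CPM (2.54 to 4.39), above 0.471 CPM (0.173 to 1.02) and 0.689 CPM (0.367 to 1.18), and outside the astrocyte-like cluster 10, 6 and 13 UMIs remained and the 3 intervals overlapped. Slc1a4 (ENSMUSG00000020142, chr11:20302180-20332713) had 28.0, 15.6 and 24.1 CPM. Its ratio for p300 was −0.21 (−0.40 to −0.02) over all nuclei and 0.19 (−0.03 to 0.41) outside the astrocyte-like cluster.

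The glutamine genes split. Glul (ENSMUSG00000026473, chr1:153899944-153909723), which encodes glutamine synthetase, had 111 CPM (106 to 117) in control, 63.1 CPM (58.9 to 67.7) in CBP-ablated and 44.3 CPM (41.3 to 47.4) in p300-ablated nuclei. It was lower in the p300-ablated than in the CBP-ablated library by 1.43-fold, the opposite order to Slc1a2. The glutamine exporter Slc38a3 (ENSMUSG00000010064, chr9:107650634-107669530) had 59.1, 59.5 and 82.6 CPM, and only its p300 ratio, 0.48 (0.37 to 0.60), had an interval without 0. Slc38a1 (ENSMUSG00000023169, chr15:96571418-96642913) was higher in both, at 124 CPM (119 to 130) in control, 178 CPM (170 to 185) in CBP-ablated and 168 CPM (162 to 174) in p300-ablated nuclei, and its ratios outside the astrocyte-like cluster were 0.58 and 0.49.

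Differences past 2-fold were counted over genes reaching 100 UMIs in a pair of libraries. Of 8 members measured, 4 were past it in the lower direction for CBP (Slc1a2, Slc1a3, Slc6a9 and Slc6a11), where 3.99% of 11883 genes were. For p300 there were 3 (Slc6a9, Slc6a11 and Glul), where 2.12% of 12247 genes were. With each nucleus weighing the same, Slc1a3 for CBP fell short at −0.99 and Slc1a2 for p300 passed at −1.01, so that the counts were 3 and 4. No member was past 2-fold in the higher direction, where 2.89% of genes were for CBP and 0.694% for p300. Outside the gate the counts were 2 for CBP (Slc1a2 and Slc6a11; 2.86% of genes) and 1 for p300 (Slc6a11; 1.23% of genes), with none in the higher direction (2.15% and 0.417% of genes). Outside the astrocyte-like cluster the lower counts were 2 for CBP (Slc1a2 and Slc6a11; 2.13% of genes) and 1 for p300 (Slc6a11; 0.943% of genes), and none was higher (1.92% and 0.362% of genes). The median log2 ratio of the 8 members was −0.94 for CBP and −0.80 for p300, beside 0.06 and −0.03 over all genes measured. Outside the astrocyte-like cluster it was −0.43 and −0.06.

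No gene of the count tables lies on the same strand within any of the 9 genes. On the other strand, Slc1a2 is overlapped by Gm13872, Slc6a9 by Ccdc24 and B4galt2, Slc7a10 by Lrp3, and Glul by Teddm2. Reads in introns were counted, so a long gene gains UMIs, and levels were compared between libraries and classes but not between genes.

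The nuclei were then divided into 10 named classes by markers, with the uptake genes left out of the clustering. In control, 6 of the 9 genes were highest in astrocyte-like nuclei, with Slc7a10, at 45 UMIs, not separated from the next cluster by its interval. Slc1a4 had 49.4 CPM (42.7 to 56.9) there and 50.5 CPM (32.7 to 74.5) in an unnamed cluster led by Cdkn1a, with 27.6 CPM in the next named class. These nuclei held 24.1% of the control UMIs. They held 82.0% of the Slc6a11, 81.8% of the Slc7a10, 58.2% of the Slc6a9, 57.9% of the Slc1a2, 52.4% of the Glul and 50.7% of the Slc1a3 UMIs of that library. Slc1a2 had 717 CPM (691 to 744) there and 505 CPM (468 to 544) in glial progenitor-like nuclei, the next named class. Slc1a3 had 1507 CPM in astrocyte-like nuclei, 1298 CPM in the glial progenitor-like class and 1095 CPM in the class of radial glia-like progenitors (RGC/PSC-like), and these 3 intervals did not overlap. Glul had 242 CPM in astrocyte-like nuclei, and its next levels, 186 CPM for glial progenitor-like nuclei and 184 CPM for the RGC/PSC-like class, overlapped each other. Oligodendrocyte-like nuclei followed with 122 CPM (100 to 148) of Glul.

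Slc38a1 and Slc38a3 were highest in glial progenitor-like nuclei instead. Slc38a1 had 509 CPM (472 to 549) there against 140 CPM (128 to 152) in astrocyte-like nuclei, and Slc38a3 had 232 CPM (207 to 259) against 70.3 CPM (62.2 to 79.1). Within the astrocyte-like cluster, Slc1a2 had 695 CPM (664 to 728) inside the gate and 762 CPM (715 to 811) outside it. Slc1a3 had 1522 and 1475 CPM and Glul 238 and 251 CPM, with overlapping intervals. Slc6a11, a gate gene, had 641 CPM inside and 211 CPM outside.

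**Figure D2:**
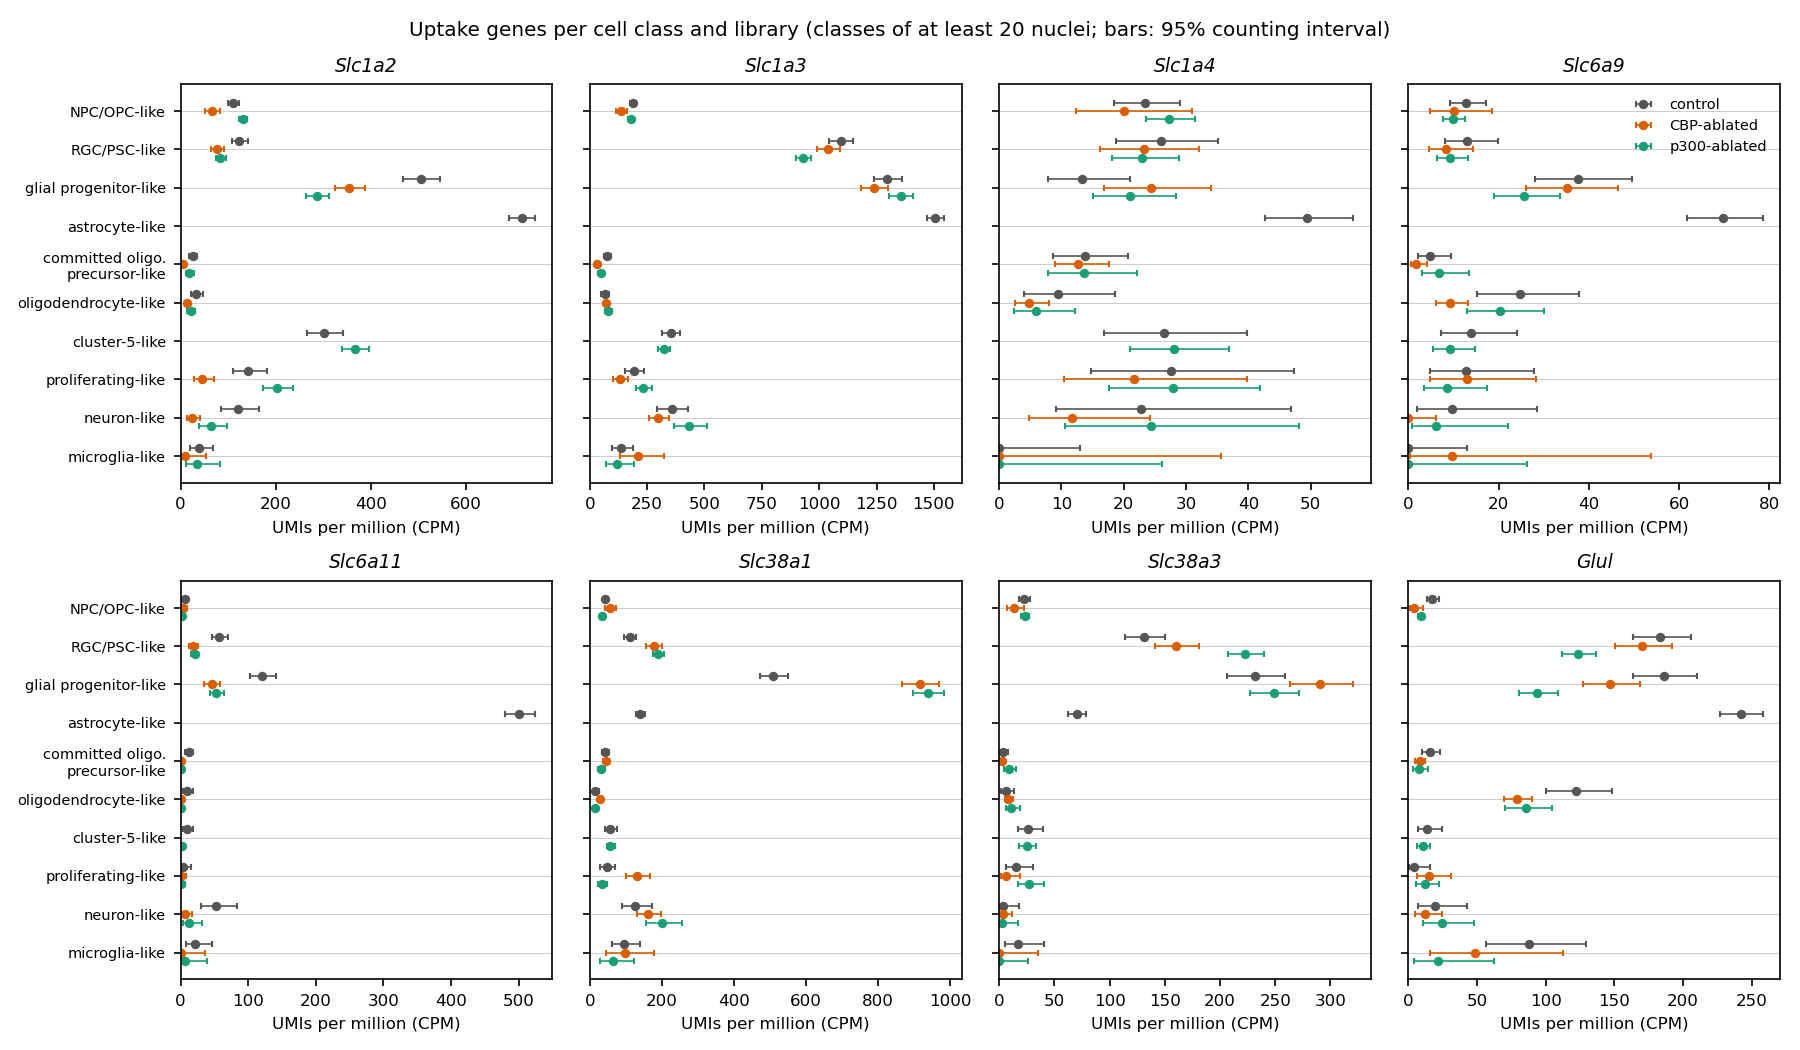
Level of 8 uptake genes (CPM, linear axes from 0) in each named class and library with at least 20 nuclei; points are sums over nuclei and bars 95% counting intervals. Astrocyte-like nuclei appear in the control library alone, and Slc38a1 in glial progenitor-like nuclei reaches 917 and 939 CPM in the ablated libraries against 509 CPM in control.

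Within glial progenitor-like nuclei (448 control, 394 CBP-ablated and 572 p300-ablated), uptake genes differed in both directions. Slc38a1 had 509 CPM in control, 917 CPM in CBP-ablated and 939 CPM in p300-ablated nuclei, log2 ratios of 0.85 (0.71 to 0.98) and 0.88 (0.76 to 1.01). Slc1a2 had 505, 354 and 287 CPM, ratios of −0.51 (−0.68 to −0.34) and −0.81 (−0.98 to −0.65). Slc1a3 had 1298, 1239 and 1355 CPM, and both of its intervals held 0. Glul had 186, 147 and 93.99 CPM, with ratios of −0.34 (−0.61 to −0.07) and −0.98 (−1.27 to −0.70). Slc6a11 had 121, 45.9 and 52.6 CPM, with ratios of −1.40 (−1.84 to −0.97) and −1.20 (−1.57 to −0.84), and was the only one of the 7 members measured past 2-fold in the lower direction, where 0.962% and 0.366% of genes were. Glul for p300, at −0.98, lay at the limit and reached −1.03 at resolution 0.3, and Slc6a11 for p300 was −0.89 without gated nuclei. None was past it in the higher direction, where 0.94% and 1.23% of genes were. Slc38a3 was higher for CBP, at 0.33 (0.11 to 0.55), and its p300 interval held 0.

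Astrocyte markers summed to lower levels in both ablated libraries in the same class. A sum weighs high genes most. Gpc5, one of these markers, had 922 CPM over all nuclei of the p300-ablated library, which held no astrocyte-like nuclei. The summed level of the 10 astrocyte markers, of which none was at 0, was 7806 CPM in control, 5878 CPM in CBP-ablated and 5563 CPM in p300-ablated glial progenitor-like nuclei, and Slc7a11 was 119, 33.0 and 42.9 CPM. Of its nuclei, 23 were gated in control, 1 without CBP and 2 without p300. Without them the Slc1a2 ratios were −0.50 and −0.87, the Slc38a1 ratios 0.87 and 0.91, and the Slc6a11 ratios −1.01 and −0.89. The part of the ungated astrocyte RNA in these differences was not tested.

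RGC/PSC-like nuclei (442, 367 and 794) gave a like picture for some members. Slc38a1 had 111 CPM in control, 177 CPM in CBP-ablated and 189 CPM in p300-ablated nuclei, ratios of 0.68 (0.40 to 0.96) and 0.77 (0.53 to 1.02), beside 94.7, 96.5 and 63.9 CPM in microglia-like nuclei. Slc38a3 had 131, 160 and 223 CPM, ratios of 0.29 (0.02 to 0.56) and 0.77 (0.54 to 0.99). Slc1a2 had 124, 76.1 and 84.0 CPM, ratios of −0.70 (−1.04 to −0.36) and −0.56 (−0.83 to −0.29). Glul was lower for p300, at −0.57 (−0.79 to −0.35), and its CBP interval, −0.35 to 0.14, held 0. Slc6a11 had 57.5, 18.1 and 20.8 CPM and was again the only member past 2-fold in the lower direction in each comparison, of 6 measured for CBP (0.927% of genes) and 7 for p300 (0.277% of genes). Slc1a2 for CBP passed it too at resolution 0.3 (−1.06) and by marker score (−1.29). None was past it in the higher direction, where 0.453% and 0.277% of genes were. Slc7a11 moved with Slc6a11, at 74.2, 9.68 and 12.1 CPM, and the summed astrocyte markers were 3006, 1637 and 1975 CPM. Atp13a4, another of these markers, was not lower, at 11.7, 14.2 and 12.1 CPM. Microglia-like nuclei had 21.1, 0 and 7.10 CPM of Slc6a11, on 6, 0 and 1 UMIs.

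The NPC/OPC-like class follows the paper's name for an apparent mix of neuronal progenitors and oligodendrocyte precursors. It was named here by 7 markers, among them Pdgfra and Cspg4, with no separate list for neuronal progenitors. NPC/OPC-like nuclei (1006, 274 and 1774) differed between the ablated libraries for Slc1a2. It had 111 CPM (99.6 to 122) in control, 65.3 CPM (50.4 to 83.2) in CBP-ablated and 132 CPM (123 to 141) in p300-ablated nuclei. Its ratio was −0.76 (−1.16 to −0.38) for CBP and 0.25 (0.08 to 0.43) for p300, opposite directions in the same class. Microglia-like nuclei had 38.6, 9.65 and 35.5 CPM of Slc1a2, on 11, 1 and 5 UMIs, and the part of such background in these ratios was not tested. Slc1a3 had 188, 137 and 178 CPM, with a ratio of −0.46 for CBP and a p300 interval that held 0. The level without CBP lay below the 212 CPM of microglia-like nuclei of that library, which rests on 22 UMIs. It lay above the 31.5 CPM of committed oligodendrocyte precursor-like and the 70.2 CPM of oligodendrocyte-like nuclei of that library. The part of background in this CBP ratio was not tested. No member of the 3 measured for CBP or the 7 measured for p300 was past 2-fold lower, where 1.02% and 0.267% of genes were, nor past 2-fold higher, where 0.339% and 0.292% were. This depended on the clustering: Slc1a2 for CBP was −1.41 at resolution 0.3, −1.27 at resolution 1.2 and −1.30 by marker score, with 687, 667 and 504 CBP-ablated nuclei in the class. Glul for p300, at −0.99, lay at the limit and reached −1.03 among the alternatives. Its 17.4 CPM in control and 8.81 CPM without p300 lay below the 87.7 and 21.3 CPM of microglia-like nuclei. Slc38a1 had 42.6 CPM (35.9 to 50.1), 55.2 CPM (41.6 to 71.9) and 34.7 CPM (30.4 to 39.3) here, ratios of 0.38 for CBP and −0.30 for p300. The intervals of both ablated levels overlapped that of control. These levels lay below the 94.7, 96.5 and 63.9 CPM of microglia-like nuclei. Nor was the microglia-like level the lowest for Slc38a1 or Glul. In control, Slc38a1 had 15.3 CPM in oligodendrocyte-like nuclei and Glul 13.8 CPM in cluster-5-like nuclei. Lying below it therefore does not show that either gene was absent from NPC/OPC-like nuclei. Summed astrocyte markers were 3961, 2897 and 3889 CPM in the NPC/OPC-like class.

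In committed oligodendrocyte precursor-like nuclei Slc1a3 had 75.9 CPM (63.3 to 90.3), 31.5 CPM (25.3 to 38.7) and 48.7 CPM (36.9 to 63.1). It was past 2-fold lower for CBP there, and the share of all genes past it in this class is not given. These levels lay below the 137, 212 and 121 CPM of microglia-like nuclei, taken here as background, so they are not read as expression. The part of background in the CBP difference was not tested. Oligodendrocyte-like nuclei had 65.9, 70.2 and 80.9 CPM of Slc1a3, likewise below that background. The background rests on 39, 22 and 17 UMIs in nuclei with low median depths of 1134, 1010 and 1664 UMIs. The comparison therefore does not show that Slc1a3 was absent from these classes. Oligodendrocyte-like nuclei had 122, 79.3 and 86.0 CPM of Glul, ratios of −0.63 (−0.96 to −0.28) and −0.51 (−0.92 to −0.10), beside 87.7, 48.2 and 21.3 CPM in microglia-like nuclei. Summed astrocyte markers in oligodendrocyte-like nuclei were 880, 522 and 522 CPM, with 1, 0 and 1 of the 10 markers at 0. Cluster-5-like nuclei, named by Kcnj6, Nell2 and Cacng4, also held Slc1a2, with 302 CPM in control and 367 CPM in p300-ablated nuclei, and the CBP-ablated library held only 18 of them.

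**Figure D3:**
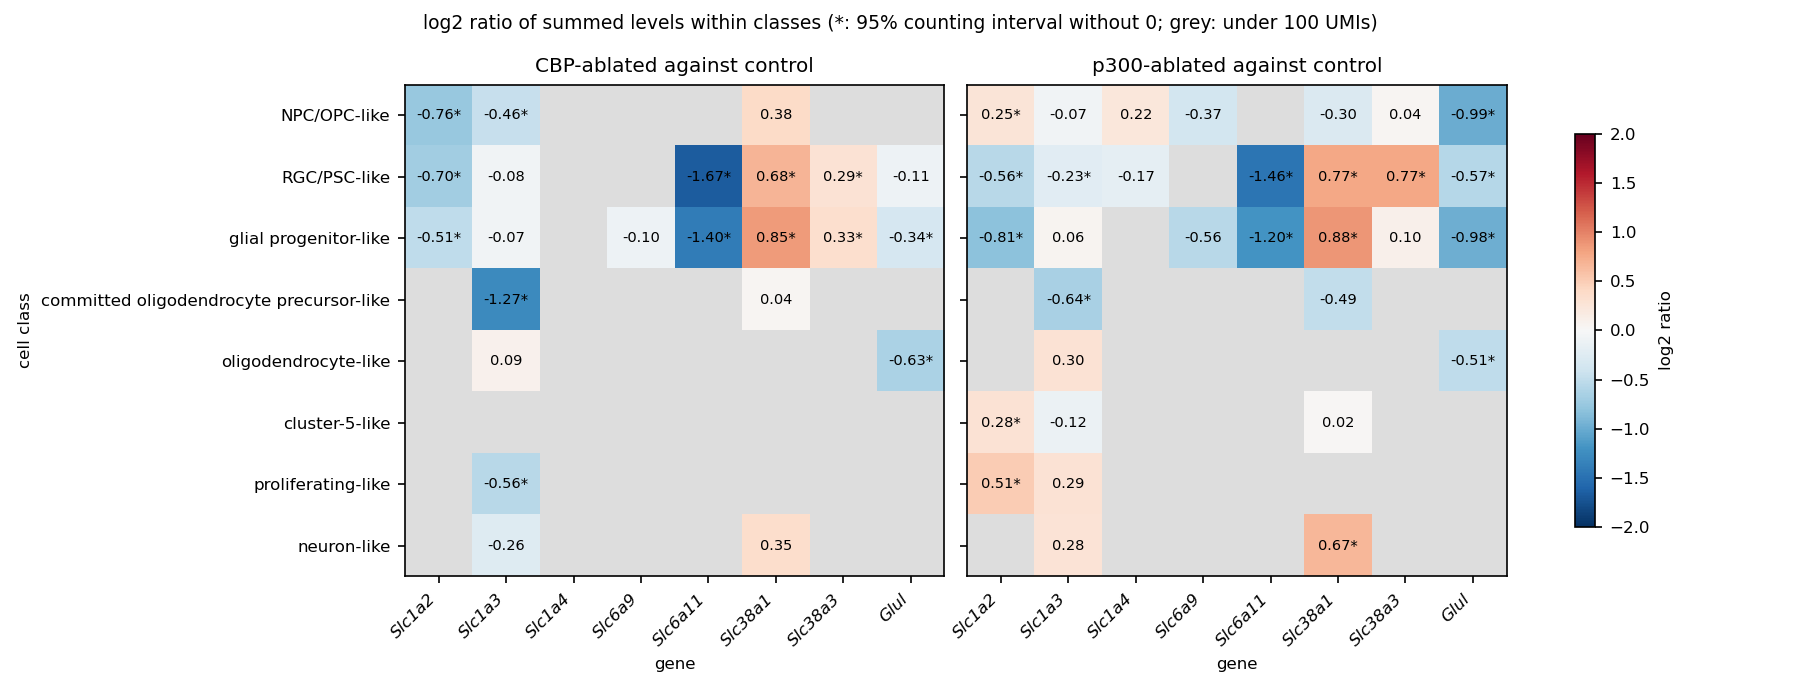
log2 ratio of the summed level in each ablated library to control, for 8 uptake genes within 8 classes; an asterisk marks a 95% counting interval without 0, and grey a pair with under 100 UMIs or, for CBP in cluster-5-like nuclei, too few nuclei. Slc38a1 is above 0 in both panels in RGC/PSC-like and glial progenitor-like nuclei (0.68 to 0.88). It is also above 0 in both in neuron-like nuclei. Levels there were 126, 161 and 201 CPM in the control, CBP- and p300-ablated libraries, with overlapping intervals. Slc1a2 is below 0 in the CBP panel but on both sides of 0 in the p300 panel. In NPC/OPC-like nuclei Slc38a1 is 0.38 in the CBP panel and −0.30 in the p300 panel, where the intervals of both ablated levels overlap that of control.

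The library differences were split, by an arithmetic chosen after the data were seen, into what the class shares alone would give with every class held at its control level, and what remained. For Slc1a2 in the CBP-ablated library, class shares alone gave 129 CPM from the control's 298 CPM, and the measured level was 67.7 CPM, a further log2 difference of −0.93. For p300 they gave 174 CPM and the measured level was 153 CPM, a further −0.19. Slc1a3 lay closer to the class shares, at −0.20 and −0.11. Slc6a11 would have been 33.8 and 34.1 CPM by class shares and was measured at 9.33 and 11.6 CPM, further differences of −1.86 and −1.55. Microglia-like nuclei had 21.1 CPM of Slc6a11 in control, against 0 and 7.10 CPM in the CBP- and p300-ablated libraries. Oligodendrocyte-like nuclei had 9.41, 1.01 and 0 CPM in the same order. Slc1a2 had 38.6, 9.65 and 35.5 CPM in microglia-like and 32.9, 13.8 and 21.1 CPM in oligodendrocyte-like nuclei. Such control levels enter the class-share values, and the part of free RNA in the further Slc6a11 and Slc1a2 differences was not tested. Slc38a1 would have been 117 and 112 CPM by class shares and was measured at 178 and 168 CPM, differences of 0.60 and 0.59. Slc38a3 was above its class shares by 0.29 and 0.44, and Glul below by −0.39 and −0.72.

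**Figure D4:**
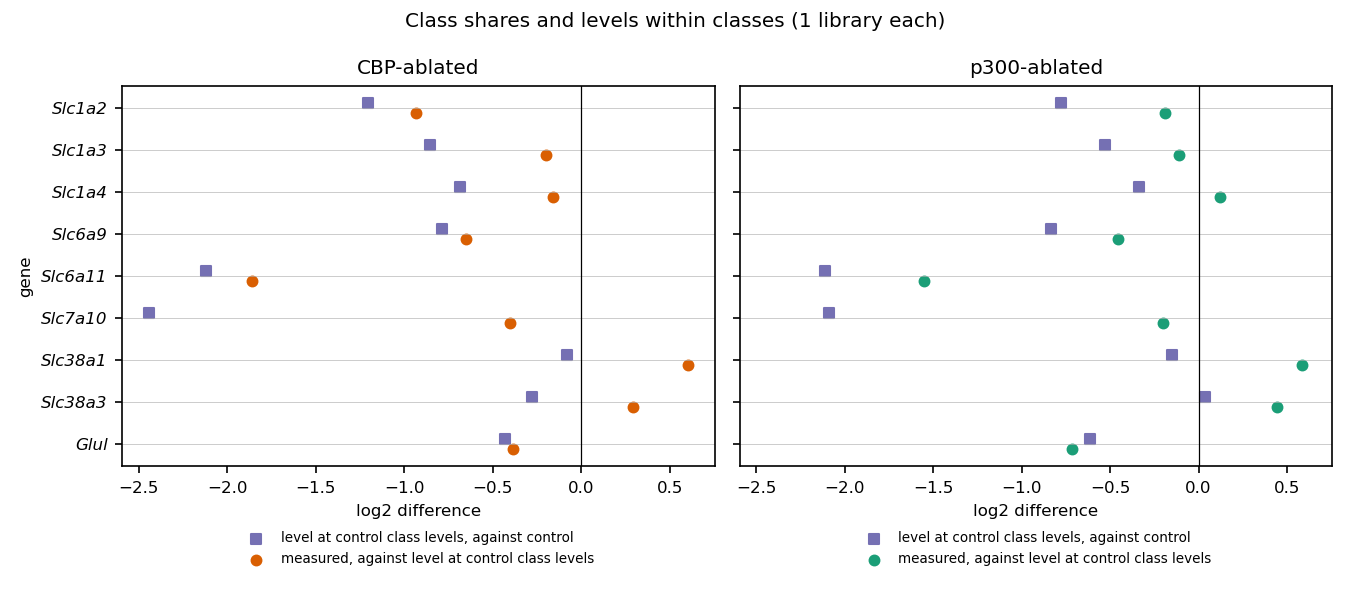
For each uptake gene, squares give the log2 difference from control that the class shares alone would make with every class at its control level, and circles the log2 difference of the measured level from that value, in the CBP-ablated (left) and p300-ablated (right) library. Squares and circles both lie far below 0 for Slc6a11 (squares −2.12 and −2.11, circles −1.86 and −1.55), while circles of Slc38a1 lie above 0 (0.60 and 0.59).

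Shares of nuclei with a UMI were taken after thinning each nucleus to 1500 UMIs, which kept 4636, 2922 and 4513 nuclei. Slc1a2 was found in 27.8% (26.6 to 29.2%) of control, 7.91% (6.95 to 8.94%) of CBP-ablated and 17.0% (15.9 to 18.1%) of p300-ablated nuclei, and without thinning in 40.5, 13.7 and 31.6%. Slc1a3 was found in 49.5, 28.5 and 37.7% after thinning, and in 62.1, 41.7 and 55.9% without. Microglia-like nuclei, immune cells taken here as background for both transporters, had median depths of 1134, 1010 and 1664 UMIs. Of their thinned nuclei 0 of 64, 0 of 22 and 0 of 30 had a Slc1a2 UMI, with upper limits of 5.60, 15.4 and 11.6%. Without thinning it was found in 5.46, 1.33 and 9.43% of all microglia-like nuclei. After thinning, Slc1a3 was found in 15.6% (7.76 to 26.9%), 22.7% (7.82 to 45.4%) and 6.67% (0.818 to 22.1%) of microglia-like nuclei, and without thinning in 17.5, 21.3 and 20.8%. The thinned share of NPC/OPC-like nuclei with Slc1a3 in the CBP-ablated library, 15.1%, lay inside the interval of that library's 22.7%. These shares alone do not tell Slc1a3 from background there. Slc6a11 in NPC/OPC-like nuclei, at 0.903, 0.735 and 0.40%, is not read as expression. In glial progenitor-like nuclei Slc38a1 was found in 39.3% (34.7 to 44.1%) of control, 58.2% (53.1 to 63.1%) of CBP-ablated and 59.7% (55.5 to 63.9%) of p300-ablated nuclei, against 9.38, 4.55 and 13.3% of microglia-like nuclei.

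Single nuclei of the control held more of these genes at once. After thinning, a control nucleus had UMIs of 1.36 of the 9 genes on average, a CBP-ablated nucleus of 0.739 and a p300-ablated nucleus of 0.932. None of the 9 was seen in 31.2, 55.5 and 41.5% of nuclei. Within glial progenitor-like nuclei the means were 2.30, 2.34 and 2.17, close to the 2.49 of the control's astrocyte-like nuclei, but nuclei with both Slc1a2 and Slc1a3 made up 31.6, 25.1 and 21.7% of them and 46.8% of the astrocyte-like ones.

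The few gated nuclei of the ablated libraries were spread over other classes. The 4 of the CBP-ablated library held 12 Slc6a11, 8 Slc1a2, 22 Slc1a3 and 9 Glul UMIs and no Slc7a10 UMI. The 10 of the p300-ablated library held 24 Slc6a11, 49 Slc1a2, 22 Slc1a3 and 7 Glul UMIs and no Slc7a10 UMI. Of these 14 nuclei, 1 and 3 were called doublets in the CBP- and p300-ablated libraries. Slc6a11 is a gate gene, so its UMIs in them follow in part from the gate. With the gate without Slc6a11, 0 and 3 nuclei of these libraries passed.

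Beyond the 9 genes, a list of 23 transporters and enzymes of glutamate, GABA and glycine was read the same way, of which 14 had enough UMIs for CBP and 15 for p300. None was past 2-fold in the higher direction, where 2.89% of 11883 genes were for CBP and 0.694% of 12247 genes for p300. The median log2 ratio of the list was −0.40 for CBP and −0.14 for p300. Over the 3 libraries together, Slc1a1 (EAAC1), a glutamate transporter, was highest in committed oligodendrocyte precursor-like nuclei, at 1018 CPM and 2.79 times the next. Unlike Slc1a2 and Slc1a3, it was higher in both ablated libraries over all nuclei. It had 237 CPM (230 to 245) in control, 340 CPM (330 to 351) in CBP-ablated and 277 CPM (269 to 284) in p300-ablated nuclei. Outside the astrocyte-like cluster the control level was 305 CPM (296 to 315), above the 277 CPM without p300 and below the 340 CPM without CBP. Gad1 and Gad2, which make GABA from glutamate, had 217 and 231 CPM in neuron-like nuclei, 9.68 and 9.62 times the next class. Slc32a1, the vesicular GABA transporter, had 20 UMIs in neuron-like nuclei, at 16.2 CPM, and none in the next class. Slc6a12, a betaine and GABA transporter, had 22 of its UMIs in microglia-like nuclei, at 41.5 CPM. Slc6a5 and Slc6a13 met the same limit on 1 UMI each, under the floor of 3 UMIs.

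For each member with at least 300 UMIs, the genes with the most similar pattern, by Pearson correlation of log2(CPM + 1), over 36 sums of class and library were listed among 10130 genes. These sums share libraries and differ in depth, and the correlations across them are a description. Slc1a3 was nearest to Slc4a4, a sodium bicarbonate cotransporter (r = 0.950), and Ppargc1a (r = 0.930). Slc1a2 was nearest to Mapk4 (r = 0.894) and Rgs20 (r = 0.879), and Slc6a11 to Ddo, D-aspartate oxidase (r = 0.835), and Tox2 (r = 0.831). Slc38a1 was nearest to Flvcr1 (r = 0.836) and Rfx3 (r = 0.826), Slc38a3 to Sulf1 (r = 0.919) and Boc (r = 0.914), and Glul to Ppp2r5a (r = 0.902) and Fnbp1 (r = 0.891). Slc6a9 was nearest to Rapgef3 (r = 0.798) and Gpm6b (r = 0.771), and Slc1a4 to 4930570B17Rik (r = 0.913) and Fgd1 (r = 0.885).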

How the data were processed

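Nuclear RNA of 3 pools of differentiated neurosphere cultures was sequenced. The deposited matrices hold raw UMI counts per gene and nucleus, which per the labels and methods the authors made with Cell Ranger 3.1 on GRCm38 (mm10), counting exons and introns (FastQC 0.11.9 and Seurat 2.3.4 are also named in the submitters' processing notes). No further filter on nuclei was applied here.

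Counts were summed over nuclei per library and class and divided by the total (CPM). Levels carry exact Poisson and shares exact Clopper-Pearson 95% intervals, and log2 ratios carry intervals from the binomial share of the 2 counts, checked on simulated counts. PCR and free RNA add error that these do not cover. Past 2-fold means a log2 ratio of at least 1 in size counted over genes that reach 100 UMIs in the pair. The merged nuclei were clustered with Seurat 5.3.0 (R 4.3.3): 1611 variable genes with the 9 members and 23 wider genes left out, 20 components, 30 neighbours, resolution 0.6, giving 13 clusters. A cluster took the name of a marker list when at least 60% and at least 3 of its markers were found in 10% of its nuclei at 2 times the level of other nuclei; 3 clusters stayed unnamed, among them a high-depth one whose nuclei were mostly called doublets. Scrublet (scanpy 1.11.5), with the nuclei of highest score taken at the expected rate of 0.8% per 1000 nuclei, gave 191, 73 and 173 doublets, which were kept in the reported values. TMM factors came from edgeR 4.0.16. Gene positions are from GENCODE on GRCm38, which held 30487 of the 30559 gene identifiers.

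Genes named are all members, the gate genes, wider genes past 2-fold or at least 2 times higher in a class than in the next, and the 2 nearest genes per member with at least 300 UMIs. The members, lists and gate were chosen with earlier results of these data known, and the limits for naming clusters were set after the data were seen. Alternatives were other scalings, filters, gates, clusterings and thinning. A gene of the wider list is not reported here.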

Additional observations from a re-analysis of the deposited data

Results flagged for a closer look

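Slc1a2 stood in opposite directions among classes of the p300-ablated library. Its log2 ratio to control was −0.56 in RGC/PSC-like and −0.81 in glial progenitor-like nuclei, but 0.25 in NPC/OPC-like, 0.28 in cluster-5-like and 0.51 in proliferating-like nuclei, each with a counting interval without 0. In NPC/OPC-like nuclei it also stood in opposite directions between the ablated libraries, at −0.76 for CBP. These differences were not tested, since each group has 1 library. They were the pairs of opposite direction among 15 pairs of member and library looked at across classes and 23 pairs of member and class looked at across libraries. Microglia-like nuclei had 38.6, 9.65 and 35.5 CPM of Slc1a2 in the control, CBP- and p300-ablated libraries. The part of such background in these differences was not tested.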

How the results depend on the processing

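With 1 library per group, no replicate could be left out. No paired analysis was possible because each group has a single library. No value whose counting interval left out 0 changed direction under the alternatives run for it. The number of uptake genes past 2-fold lower outside the gate was 2 for p300 when the gate left out Slc6a11, against 1, where Glul passed. Over all nuclei the count for CBP was 3 with the mean of CPM per nucleus, against 4, and that for p300 was 4 with that mean or after thinning (Slc1a2 at −1.05), against 3. Outside the gate the count for CBP was 3, against 2, with the gate without Slc6a11 or with TMM factors, where Slc6a9 passed at −1.14 and −1.02. The p300 median of the 8 members there was −0.065 when the astrocyte-like cluster was left out in place of the gate, against −0.39. Slc6a11 outside the gate was −3.47 for CBP and −3.16 for p300 with the gate without Slc6a11, and −1.79 and −1.50 with a looser gate. The gated share of control nuclei was 12.9% with the gate without Slc6a11, 23.3% with the looser gate and 9.92% after thinning. In the CBP-ablated library these shares were 0, 0.530 and 0%, and in the p300-ablated library 0.0645, 0.581 and 0%. In RGC/PSC-like nuclei the p300 median of 7 members was −0.44 at resolution 0.3 and −0.35 with nuclei assigned by their highest marker score, against −0.23. Slc1a2 in NPC/OPC-like nuclei for CBP was −1.41 at resolution 0.3, −1.27 at resolution 1.2 and −1.30 by marker score, and in RGC/PSC-like nuclei −1.06 at resolution 0.3 and −1.29 by marker score. Without thinning, the shares of nuclei with Slc1a2 were 40.5, 13.7 and 31.6% and with Slc1a3 62.1, 41.7 and 55.9% in control, CBP- and p300-ablated libraries. The cause of these shifts was not tested. Over the alternatives, values of single genes left their counting interval in 47 cases and stayed within it in 574. The comparison with the class shares was added after the data were seen.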
